A study of Mus musculus with 9 samples.

Results

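The D3-alone regions are stretches of the mouse genome with an ATAC-Seq peak called 3 days after the reprogramming factors were delivered to fibroblasts and at no other stage of the time course. They were defined by the peak calls themselves. Overlapping peaks of the 7 time-course libraries on chromosomes 1 to 19 were merged into 204843 union regions, and a region was kept if it overlapped a D3 peak by at least 1 bp and no peak of the other 6 libraries. This rule gave 20753 regions, 10.1% of the union regions and 20.8% of the 99597 union regions present at D3. Only regions found in D6T- and nowhere else were more numerous, with 38645, and D0-alone regions numbered 20379.

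Accessibility was measured by ATAC-Seq, in which a transposase inserts sequencing adapters into DNA that is free of nucleosomes, so that fragments pile up over open enhancers and promoters. When Oct4, Sox2, Klf4 and c-Myc (OSKM) enter fibroblasts, they meet both open and closed chromatin. Enhancers of the fibroblast, many of which are bound by AP-1, the dimer of Fos and Jun proteins, are known to close early, while pluripotency enhancers open later. Regions that open early and close again are known as transient.

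The cells were mouse embryonic fibroblasts (MEFs) carrying green fluorescent protein at the Oct4 locus. D0 was the fibroblast culture at day 0, and D3 was the whole, unsorted culture 3 days after pMXs retroviruses had delivered the 4 factors. D6T- and D9T- were sorted cells without the fibroblast surface marker Thy-1 at days 6 and 9, D12S+ and D16S+ were cells positive for the pluripotency marker SSEA-1 at days 12 and 16, and iPSCs were fully reprogrammed cells. In the remaining 2 libraries, D6 siNT and D6 siH3.3, infected cells had received a non-targeting siRNA or an siRNA against the histone variant H3.3 and were collected as Thy-1-negative cells at day 6. These 2 played no part in choosing the regions. Each condition had 1 library, so nothing could be tested over replicates. D3 differed from the later libraries both in time and in being unsorted, and these cannot be told apart.

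Libraries held from 13213117 (D9T-) to 31714845 (D0) tags, with 30233396 at D3. Height is given below as pileup, the number of tags, each extended to 200 bp, that lay over the summit of a region, or as CPM, the pileup divided by the tags of the library in units of 1e+06. The lowest pileup called in D3 was 10 tags or 0.331 CPM, the lowest of the time course, against 0.347 CPM in D0, 0.374 CPM in D6T- and 0.530 CPM in D9T-. Bracketed ranges and ranges named as intervals are 95% Wilson intervals of a share. They express how many regions were counted and leave out the spread between cultures.

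The sequences of 4 regions are shown because the account of repeats and motifs turns on them. Each is the D3 summit base with 100 bp to either side, on the plus strand of mm9 (NCBIM37), from windows free of annotated exons. The first is the highest region with the 12-base string AATGGAATGGAA, which is marked in capitals.
Intergenic, nearest to Gm8882, 112 tags, chr6:132413683-132413883: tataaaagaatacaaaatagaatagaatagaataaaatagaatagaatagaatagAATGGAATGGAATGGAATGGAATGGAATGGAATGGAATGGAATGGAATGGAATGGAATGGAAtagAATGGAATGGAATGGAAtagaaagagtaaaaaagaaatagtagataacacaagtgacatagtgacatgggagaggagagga
The next pair are the highest regions that hold the AP-1 motif TGANTCA, and the last holds the E-box CAGCTG, the site of many basic helix-loop-helix factors, with the motif in capitals. They were taken from regions whose 31 summit bases occur at a single place in the genome. Even so, the first of the pair is made of near-copies of a longer unit in tandem, as its bases show.
Intergenic, nearest to Lrfn1, 28 tags, chr7:29263396-29263596: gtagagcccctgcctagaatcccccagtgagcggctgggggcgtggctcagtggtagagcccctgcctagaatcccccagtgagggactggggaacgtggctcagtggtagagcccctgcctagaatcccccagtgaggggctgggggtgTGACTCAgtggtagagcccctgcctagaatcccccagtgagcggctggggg
Promoter of D4Bwg0951e, 25 tags, chr4:80554923-80555123: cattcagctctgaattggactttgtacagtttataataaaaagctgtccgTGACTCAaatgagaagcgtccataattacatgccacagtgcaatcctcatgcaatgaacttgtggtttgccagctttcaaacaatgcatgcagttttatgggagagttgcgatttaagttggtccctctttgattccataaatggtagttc
9230109A22Rik intron, 29 tags, chr15:25070633-25070833: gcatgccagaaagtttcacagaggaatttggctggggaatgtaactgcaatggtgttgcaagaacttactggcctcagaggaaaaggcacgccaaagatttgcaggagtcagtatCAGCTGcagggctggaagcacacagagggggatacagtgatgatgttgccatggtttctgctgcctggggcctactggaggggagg

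Most D3-alone regions were low and narrow. Their median pileup was 13 tags, or 0.430 CPM, with quartiles of 12 and 15 tags, and 8.12% of them (1685) stood at the lowest called value of 10 tags. Other D3 regions had a median of 20 tags. The median width was 244 bp against 551 bp, and 97.8% of the D3-alone regions had a single summit. As presence and height come from the same peak calls, these values describe the rule and were not tested.

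The share of D3 regions that were found at D3 alone fell steeply with height. It was 54.9% at 10 to 12 tags, 41.7% at 13 to 14 tags, 12.1% at 17 to 20 tags and 0.361% above 30 tags (80 of 22173 regions). At the same CPM, a region would have been at or above the lowest call of D0 for 91.9% of the D3-alone regions and of D6T- for 79.6%. For D9T-, the shallowest library, this held for 11.7% (2434 regions). For most of them, absence from D9T- was not measurable at this depth. Only 63 regions, 0.304%, reached 1.06 CPM, a height of 2 times the D9T- limit.

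Many of the regions lay close to accessible chromatin of other stages. A region of another time-course library lay within 500 bp of 25.5% of them, within 1000 bp of 41.4% and within 5000 bp of 81.6%. At the edge of the rule, 127 D3-alone regions (median 12 tags) had another library's region within 10 bp, and 143 D3 regions (median 13 tags) were left out although they shared no more than 10 bp with one. The regions were unevenly spaced along the chromosomes. Neighbouring D3-alone regions lay a median of 18360 bp apart and 8.34% of the gaps were under 1000 bp. The chromosomes held 1 region per 119.1 kb on average, which is a mean and not a like measure to the median gap. Spacing was not calculated for the other groups of regions.

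**Figure D1:**
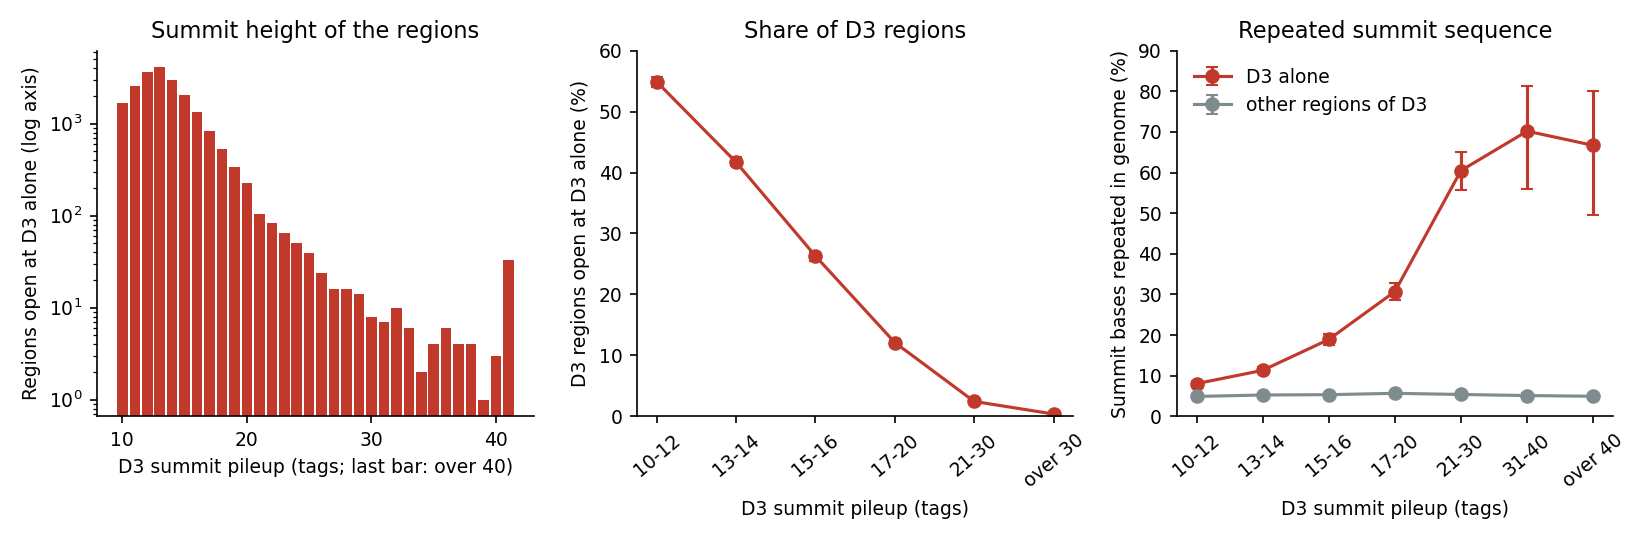
Left, number of D3-alone regions (log axis) at each D3 summit pileup in tags, with all heights over 40 tags in the last bar. Middle, share of all D3 regions in each pileup class that were found at D3 alone. Right, share of regions whose 31 summit bases occur more than once in the genome, for D3-alone regions and the other D3 regions. Bars are 95% Wilson intervals. D3-alone regions lie mostly at 11 to 15 tags, their share falls from 54.9% to 0.361%, and the share with repeated summit bases rises from 8.02% to 66.7%, while it stays between 4.87% and 5.64% in the other D3 regions.

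A small tail was tall. 33 of the 20753 regions exceeded 40 tags and 11 exceeded 60 tags. The highest, at 198 tags or 6.55 CPM with a fold enrichment of 47.0 over evenly spread tags, lay in an intron of Sepsecs, which encodes the enzyme that makes selenocysteine on its tRNA. The next lay in the promoter of Izumo1, the sperm protein needed for fusion with the egg, with 145 tags. An intergenic region nearest to 2810405K02Rik had 140 tags, and an intron of Plxdc2 had 136. The region nearest to Gm8882, 99631 bp away, had 112 tags (chr6:132413601-132413985). The remaining 5 of the top 10 had 62 to 76 tags. They lay in an intron of the protein kinase gene Pkn3, in an exon of Ahnak2 and in intergenic sequence nearest to the olfactory receptor gene Olfr854, to Ndst4 and to 1700024P04Rik.

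These tall regions were narrow. Of the 33 regions over 40 tags, 21 were 340 to 390 bp wide and 32 had a single summit. Of 14567 other D3 regions over 40 tags, 69 or 0.474% had such a width, and the median was 1082 bp against 364 bp. No tall region overlapped a region of D6 siNT, and 0.357% of all D3-alone regions did, so this count is near the background. The regions in Sepsecs, Izumo1 and Plxdc2 overlapped regions of D6 siH3.3, at 1.12, 0.482 and 0.750 CPM there against 6.55, 4.80 and 4.50 CPM at D3.

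Repeated sequence was common under the summits and became more so with height. The 31 bases around the summit occurred more than once on chromosomes 1 to 19, X and Y in 14.3% of the D3-alone regions (2977 regions, interval 13.9 to 14.8), against 5.24% of the other D3 regions, 4.23% of the D0-alone regions and 7.19% of all union regions. At 10 to 12 tags the share was 8.02% in D3-alone regions and 4.87% in other D3 regions. At 21 to 30 tags it was 60.5% (254 of 420) against 5.36%, and above 40 tags it was 66.7% (22 of 33) against 4.92%. The Gm8882, Olfr854 and Ndst4 regions had summit bases present 157, 152 and 157 times, and the Sepsecs region 2 times. Those of Izumo1, Plxdc2 and Pkn3 occurred at a single place.

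The tall regions also shared short strings. These were found after the values were seen, as the 12 bases present in the most windows, taken on either strand, first over all 33 and then over the windows left. AATGGAATGGAA was held by 9 of the 33 regions, 10 of 467 at 21 to 40 tags and 6 of 20253 at 10 to 20 tags, against 8 of 14567 other D3 regions over 40 tags and 54 of all 204843 windows, or 0.0264%. AGGCTGAGGCAG was held by 4 of the 33, among them Sepsecs, Izumo1 and Pkn3, against 9 of the 14567 and 0.0967% of all windows. Repeats of the unit GGAAT form the human satellites II and III, and the second string belongs to the consensus of primate Alu elements. Retroviruses for the infection had been packaged in 293T cells, a human kidney line. Whether DNA from those cells reached the D3 library was not tested. Together the 2 strings and the next 2 found in this way covered 18 of the 33 regions but 0.371% of all D3-alone regions.

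The D6 siNT and D6 siH3.3 libraries offered a measure of recurrence in files that the rule had not used. Of the D3-alone regions, 74 or 0.357% (0.284 to 0.447) overlapped a D6 siNT region and 89 or 0.429% (0.349 to 0.527) a D6 siH3.3 region, and 9 overlapped both. The background over all union regions was 20.1% and 20.4%. Regions shared by D3 and D6T- alone recurred at 15.3% and 15.9%, D6T- alone regions at 7.35% and 7.83%, and D0-alone regions at 0.201% and 0.290%. D3-alone regions thus stood closer to the D0-alone regions than to those that D6T- also held. The rule had removed every region held by D6T-, which like the siRNA libraries came from Thy-1-negative cells of day 6, so that these shares are not fully separate from it.

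The gap was present at equal height. At 10 to 12 tags, 0.382% of the D3-alone regions overlapped a D6 siH3.3 region, against 13.1% of other D3 regions and 12.4% of the regions of D3 and D6T- alone. At 21 to 30 tags the shares were 0.952%, 46.3% and 23.5%. Above 30 tags, 0 of 80 D3-alone regions overlapped D6 siNT, with an upper interval bound of 4.58%. The D6 cells had been transfected and sorted, and their peak files held fewer tags than D3. The rule had also removed every region of D6T- from the D3-alone group but not from the groups compared, at any height. Later time, sorting, depth and this choice of regions cannot be told apart here. Other D3 regions were also wider, with a median of 551 bp against 244 bp, and the part of width was not tested. Within 500 bp in place of 1 bp, 3.34% of the D3-alone regions had a D6 siNT region and 3.20% a D6 siH3.3 region.

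The D3-alone regions that did recur had the same typical height as the rest. Their median D3 height was 0.430 CPM in both sets, equal to that of all D3-alone regions. In D6 siNT the overlapped regions had a median of 0.505 CPM and at most 0.734 CPM, and in D6 siH3.3 a median of 0.536 CPM and at most 1.12 CPM. In the tail, 3 of the 80 regions over 30 tags overlapped D6 siH3.3 (3.75%, 1.28 to 10.5), all among the 4 tallest, against 0.382% at 10 to 12 tags.

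**Figure D2:**
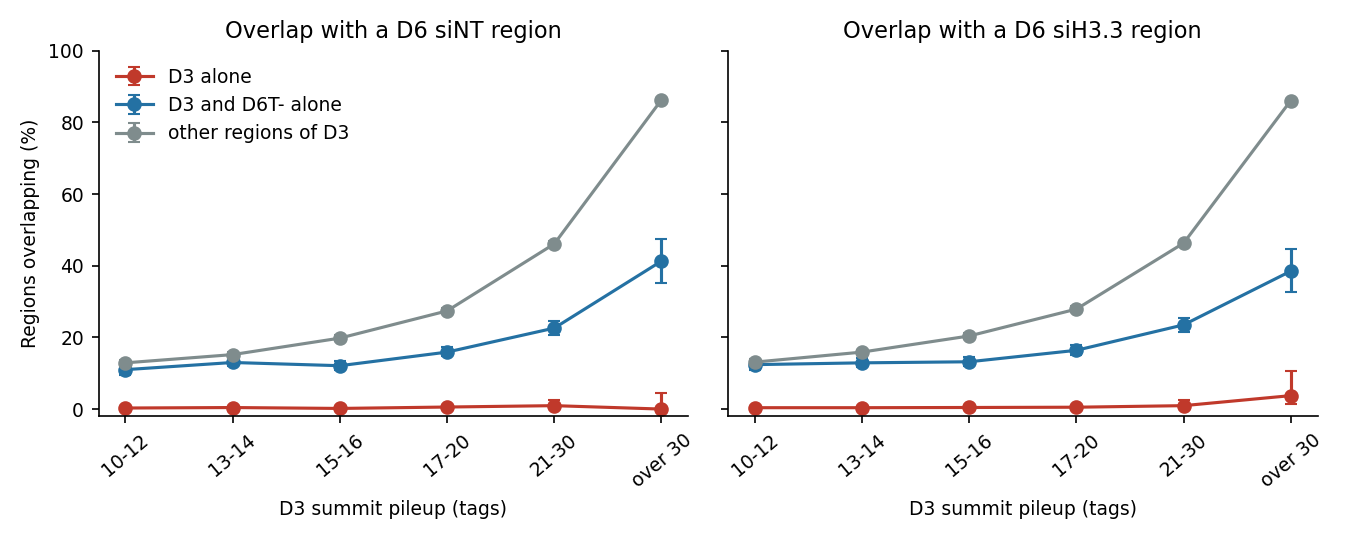
Share of regions that overlap a D6 siNT region (left) or a D6 siH3.3 region (right) by at least 1 bp, in classes of D3 summit pileup in tags, for D3-alone regions, regions of D3 and D6T- alone and all other D3 regions. Bars are 95% Wilson intervals. D3-alone regions stay below 4% in every class, while the other D3 regions rise from about 13% to 86%.

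The D3-alone regions favoured genes and exons. Promoters, the 3 kb upstream of a TSS, held 14.6% of them (3037 regions), genebodies 57.5% and intergenic sequence 27.8%. The genebody share was 46.6% in other D3 regions, 49.3% in regions of D3 and D6T- alone, 52.6% in D0-alone regions and 46.3% in D6T- alone regions, so the D3-alone value was the highest of the 5 groups. The promoter share was 18.7% in other D3 regions and 13.6% over all union regions. The difference from other D3 regions depended on height. At 10 to 12 tags the promoter share was 15.7% in D3-alone and 14.6% in other D3 regions, and at 17 to 20 tags 12.7% and 12.9%. It was lower in taller D3-alone regions, with 7.38% against 14.5% at 21 to 30 tags and 5.00% against 31.4% above 30 tags. The median distance to a TSS was 8255 bp, against 9646 bp for other D3 regions and 12887 bp for all union regions. It was 17276 bp for D3 and D6T- alone and 14628 bp for D0 alone. Within 1000 bp of a TSS lay 13.3% of the D3-alone regions but 22.7% of other D3 regions, a share that was not calculated by height.

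Summits in exons were frequent. A summit lay in an exon in 19.8% (19.3 to 20.4) of the D3-alone regions, against 13.3% of other D3 regions, 5.55% for D3 and D6T- alone, 6.29% for D0 alone and 10.1% over all union regions. The difference was present away from promoters. Among regions more than 1000 bp from any TSS, 16.2% of the D3-alone summits (2922 of 17998) were exonic against 5.60% in other D3 regions and 5.26% in D0-alone regions. By height, the exon share was 20.7% against 11.7% in other D3 regions at 13 to 14 tags and 15.5% against 9.88% at 17 to 20 tags. It turned in taller regions, with 8.33% against 10.8% at 21 to 30 tags and 5.00% against 19.4% above 30 tags. Coding exons held 13.2% of the D3-alone summits and 4.41% of the others. Exons of all kinds make up 3.34% of the bases of these chromosomes.

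**Figure D3:**
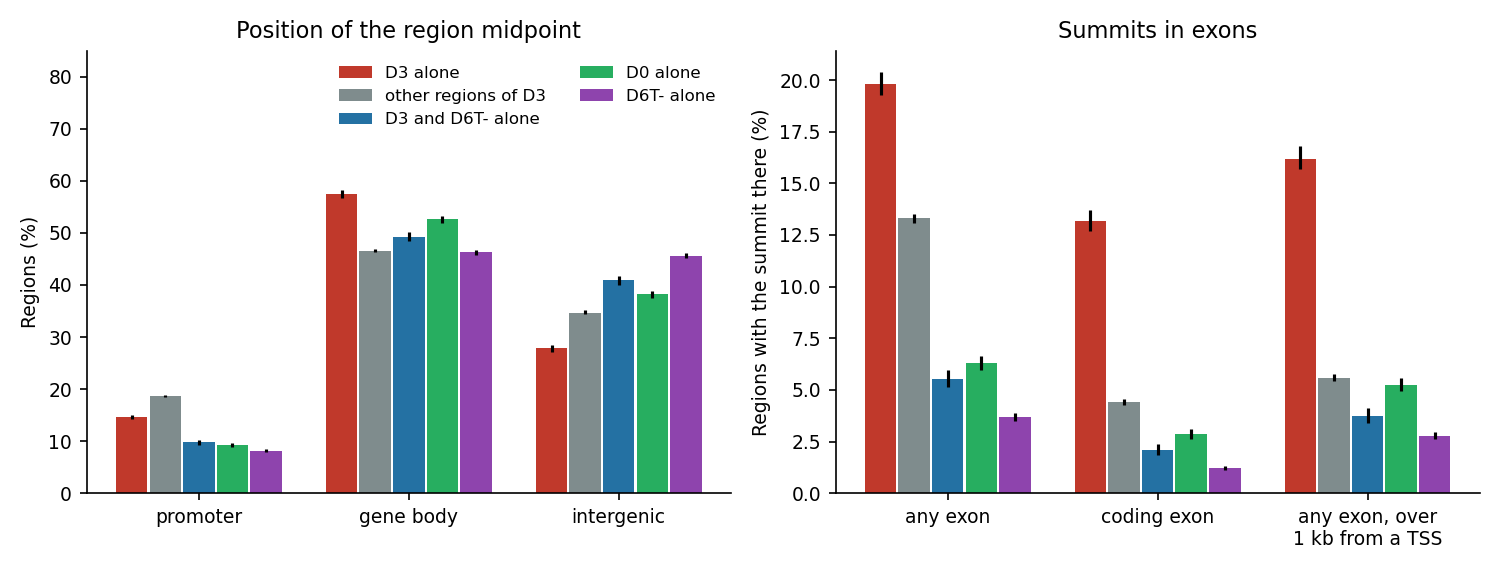
Left, share of regions whose midpoint lay in a promoter (3 kb upstream of a TSS), a genebody or intergenic sequence, for 5 groups of regions. Right, share of regions whose summit lay in any exon, in a coding exon, or, among regions over 1 kb from a TSS, in any exon. Bars have 95% Wilson intervals. D3-alone regions have the highest share in genebodies (57.5%) and in each class of exon.

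The regions were also rich in G and C. The summit with 100 bp to either side had a median GC content of 55.7% (quartiles 52.2 and 59.2), against 52.2% in other D3 regions, 48.8% for D3 and D6T- alone, 49.8% for D0 alone, 44.8% for D6T- alone and 50.2% over all union regions. This was not the composition of CpG islands, which mark promoters: CpG numbered 1.81 ± 1.65 per 100 bp (SD over 20753 regions), below the 3.00 ± 3.62 of other D3 regions and above the 1.02 ± 0.923 of D0-alone regions. Composition peaked at the summit, with 55.7% mean GC within 50 bp and 50.0% at 950 to 1000 bp. Regions of D3 and D6T- alone had a peak of like size at a lower level, with 49.5% and 44.5%, and D6T- alone regions a smaller one, with 45.3% and 42.9%. D0-alone regions showed almost none, with 49.1% and 48.9%.

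The difference depended on height. At 13 to 14 tags, the median GC was 55.7% in D3-alone and 51.7% in other D3 regions, and at 17 to 20 tags 55.2% and 50.7%. Above 30 tags it turned, with 52.2% in the 80 D3-alone regions and 56.7% in other D3 regions. Read the other way, D3 regions of 10 to 14 tags were D3 alone in 9.23% of cases below 40% GC, 28.7% at 45 to 50% GC and 63.2% at 55 to 60% GC, but in 36.2% at 65% GC or more. GC content of libraries is also a technical property of amplification and sequencing, and its part here was not tested. Across the 19 chromosomes, the number of D3-alone regions per Mb ranged from 3.75 on chromosome 3 to 14.6 on chromosome 11, and its Pearson correlation with the GC content of the chromosome was 0.90. The chromosomes share 1 library, and the value is a description. All D3 regions were also more numerous on chromosome 11 (7003 in 121.8 Mb) than on chromosome 3 (4906 in 159.6 Mb). D3-alone regions were 25.4% and 12.2% of these. The correlation was not calculated for all D3 regions, so it is not shown to be particular to D3-alone regions.

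AP-1 motifs were scarce. TGANTCA, searched on both strands within 100 bp of the summit, was present in 7.01% (6.67 to 7.37) of the D3-alone regions, against 29.6% of other D3 regions, 36.5% for D3 and D6T- alone, 38.6% for D6T- alone, 12.6% for D0 alone and 23.9% of the windows of this length around all union summits. The pair with the highest −log10 q-value among summits found at a single place is printed above. At 10 to 12 tags the shares were 6.41% and 20.1% for D3-alone and other D3 regions, and at 21 to 30 tags 5.95% and 35.9%. Even so, the motif was slightly more frequent at the summit than beside it: 7.17% had its middle within 100 bp, against 5.37% in 200 bp of flank 800 to 900 bp away on both sides, a ratio of 1.33. The same ratio was 5.63 for D3 and D6T- alone, 5.69 for D6T- alone and 2.33 for D0 alone.

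Sites of the reprogramming factors were searched in the same windows. The octamer ATTTGCAT, the site of Oct4 and other POU factors, was present in 0.477% (0.392 to 0.580) of the D3-alone regions, with a centre-to-flank ratio of 0.611. It was present in 1.64% of all windows, 1.16% of other D3 regions and 0.898% of D0-alone regions. Strings of the Sox site (ACAATGG or AACAATG) were present in 3.69% of the D3-alone regions, with a centre-to-flank ratio of 0.938. All windows had 6.71%, other D3 regions 5.71% and D0-alone regions 4.33%. Strings of the Klf site (GGGTGNGG or GGGNGGGGC) were present in 14.9% against 13.8% of all windows and 17.3% of other D3 regions. Their centre-to-flank ratio was 1.30. By height, the Klf share of D3-alone and other D3 regions was 15.0% and 14.8% at 10 to 12 tags and 14.7% and 14.1% at 17 to 20 tags. It was 10.0% and 15.1% at 21 to 30 tags and 5.00% and 24.4% above 30 tags. The c-Myc E-box CACGTG was present in 4.28% against 3.78% of all windows and 4.35% of other D3 regions, with a ratio of 1.32. The E-box CAGCTG was the most frequent of the 18 motifs searched. It was present in 18.6% (18.1 to 19.1) of the D3-alone regions, 17.3% of other D3 regions, 20.6% for D3 and D6T- alone, 12.3% for D0 alone and 15.6% of all windows, with a ratio of 1.44. A match is a match of letters and says nothing of binding. GC content peaked at the same place, and its part in these ratios was not tested.

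**Figure D4:**
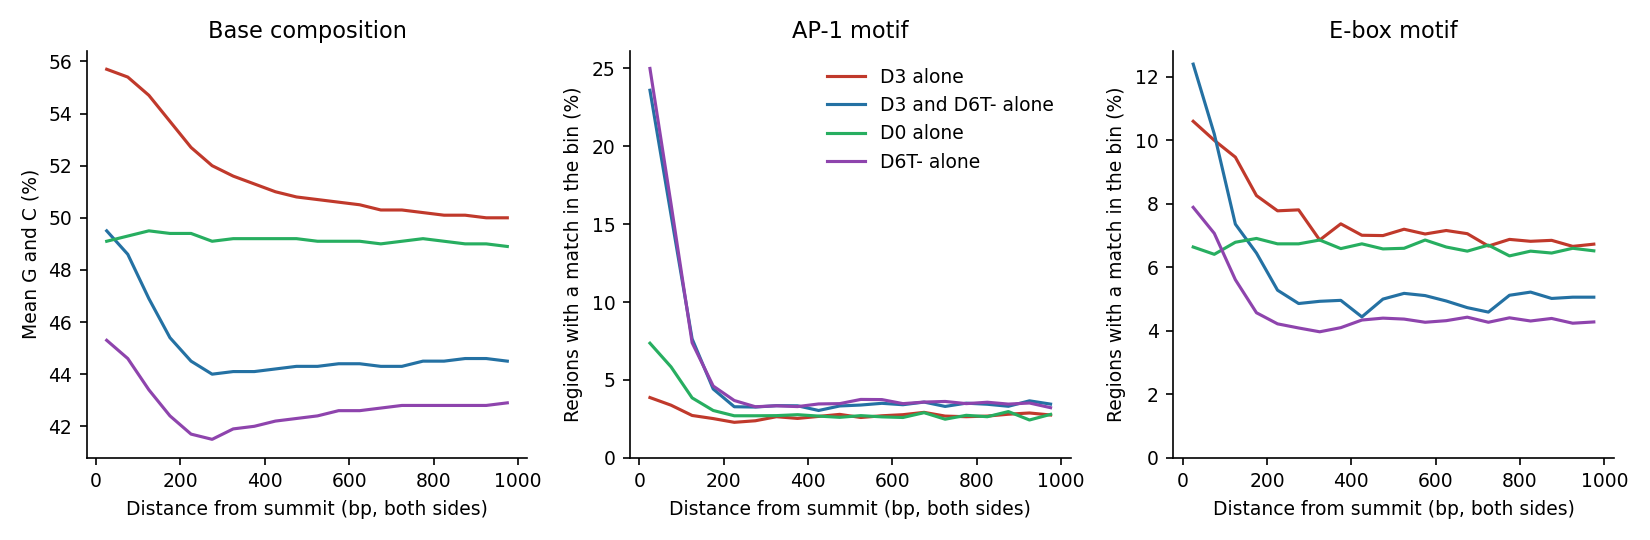
Mean GC content (left) and share of regions with a match to TGANTCA (middle) or CAGCTG (right) in 50 bp bins of distance from the summit, both sides together, for D3-alone regions, regions of D3 and D6T- alone, D0-alone and D6T- alone regions. D3-alone regions have the highest GC content throughout (55.7% to 50.0%), the lowest AP-1 share at the summit (3.87% in the first bin against 23.6% for D3 and D6T- alone), and 10.6% with CAGCTG in the first bin.

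The regions were spread over many genes. Of 21418 protein-coding genes, 6554 (30.6%) held at least 1 D3-alone region from 3 kb upstream to the TTS. The largest counts were in long annotated spans. Gm20388, whose model spans 4438 kb and runs across many other genes, held 394, and the 3012 kb model of the fibroblast growth factor receptor gene Fgfr2 held 46. High counts in shorter models included C130026I21Rik with 42, the neuronal splicing factor gene Rbfox3 with 37, the calmodulin-binding transcription activator Camta1 with 30 and Zmiz1, a transcriptional coactivator, with 28. Gm2792 held 27, Gse1, which lies inside the Gm20388 model, 25 and the lincRNA Gm17480 24.

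Copies of sequence touched some of these counts. In C130026I21Rik 34 of 42 summits, in Gm2792 25 of 27 and in Tmem181a 14 of 16 had 31 bases present more than once in the genome. The authors had removed ambiguously mapped reads, and whether the remaining tags of these summits came from that place was not tested. In Rbfox3, Zmiz1 and Gm17480 none did. No D3-alone region in the genes named here or in the densest ones overlapped a region of D6 siNT or D6 siH3.3, beside the 0.357% and 0.429% of all D3-alone regions.

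Per 10 kb, the densest protein-coding genes of at least 20 kb were Fasn, the fatty acid synthase (4.24), Tmem181a (4.18) and Zmiz2 (3.98). Next came Il4ra, a chain of the interleukin-4 receptor (3.97), Celsr2, an adhesion receptor of the cadherin family (3.97), and the lipid transporter Abca2 (3.94). They were followed by the kinase Adrbk1 (3.88), the semaphorin receptor Plxna1 (3.85), Ttyh3 (3.82) and the kinase Akt1 (3.74). Median pileups in the other 9 genes lay between 12 and 14 tags, and that of Tmem181a was 18.5.

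At the single genes shown here, D3-alone regions were low, and the tallest D3 region was one that another library shared. In Fasn (ENSMUSG00000025153.8, chr11:120667254-120685492), 9 of 11 D3 regions were D3 alone, at 10, 12, 12, 12, 12, 14, 14, 14 and 14 tags. The 2 shared regions had 96 tags, 18 bp upstream of the gene start, and 14 tags. Of the 9 summits, 7 were exonic. In Plxna1 (ENSMUSG00000030084.5), 19 of 25 D3 regions were D3 alone at 10 to 19 tags, and the 6 shared ones had 12 to 64. The D3-alone and shared heights overlapped in both genes.

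**Figure D5:**
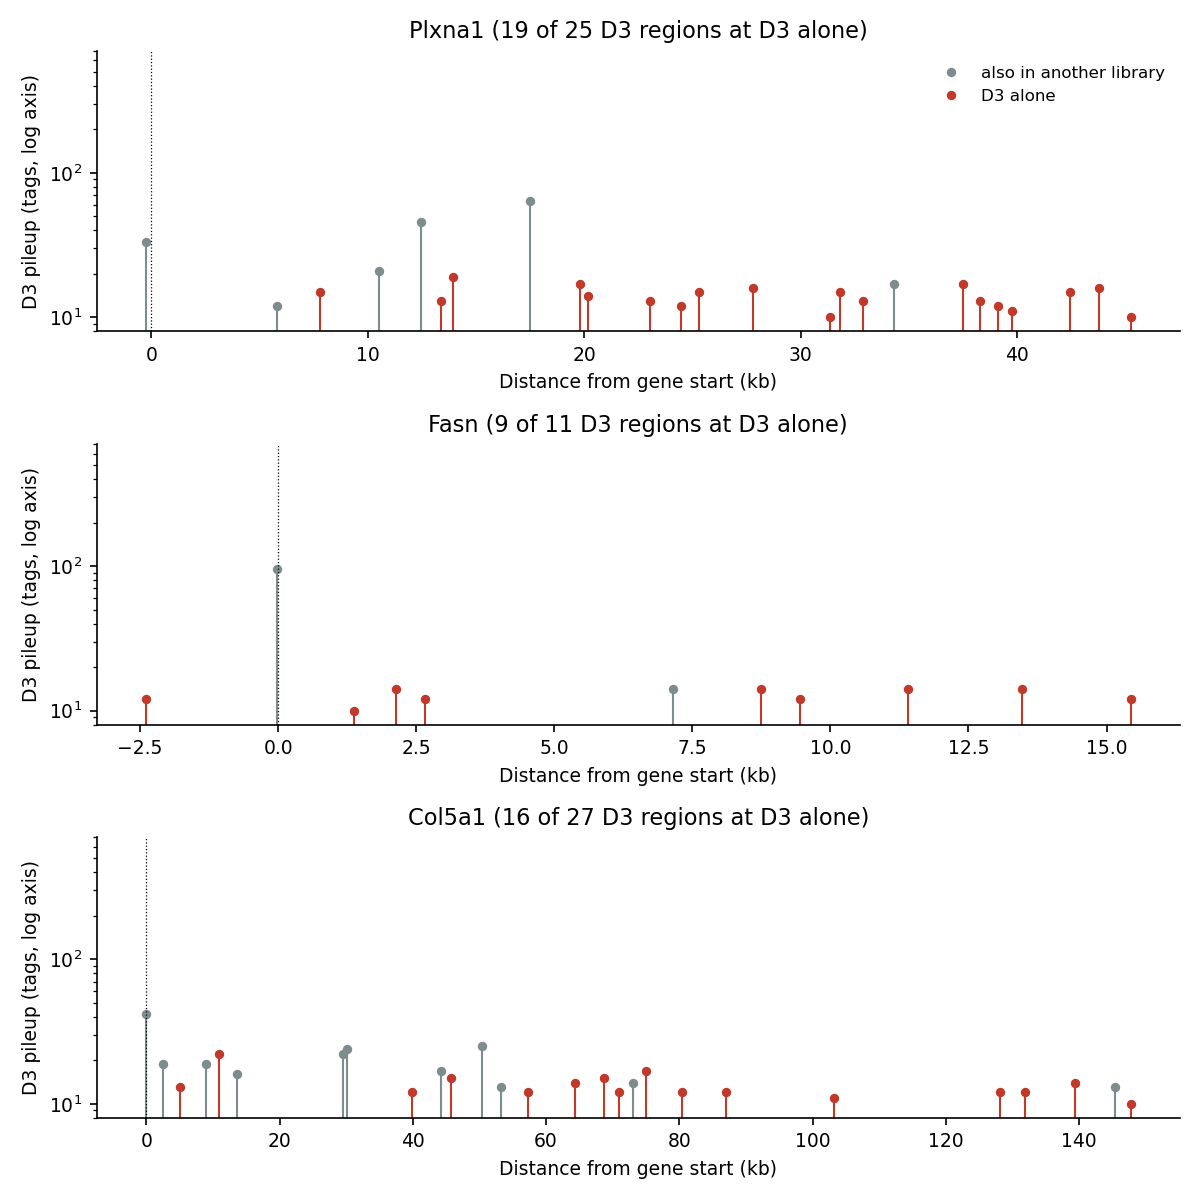
D3 summit pileup in tags (log axis) of every D3 region in Plxna1, Fasn and Col5a1 against distance from the gene start in kb, in the direction of transcription. Red points are D3-alone regions and grey points regions that another time-course library also held. D3-alone regions run the length of each gene at 10 to 22 tags, and the tallest region of each gene (42 to 96 tags) is shared.

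Genes of most lists were touched more often than genes at large. Of 31 fibroblast and mesenchymal genes, 19 (61.3%) had at least 1, against the 30.6% of all protein-coding genes. Their spans were longer, with a median of 32.9 kb against 18.5 kb, and all 31 had some D3 region. The shares were 69.2% for TGF-beta genes, 6 of 10 for blood and endothelial genes, 50.0% for genes of AP-1 proteins and 48.3% for Mapk cascade genes. Median spans of these lists were 67.8, 74.0, 12.4 and 62.4 kb in that order. Each of their genes had some D3 region, against 16473 of 21418 protein-coding genes. The part of span in these shares was not tested. Measured against D3 regions, 62 of 215 (28.8%, 23.2 to 35.2) in the fibroblast and mesenchymal genes were D3 alone, beside 20.8% of all D3 regions. This was 1 of 9 lists examined, and the difference was not tested. Without the 3 genes with the most D3-alone regions, 29 of 158 D3 regions (18.4%, 13.1 to 25.1) in the other 28 genes were D3 alone. These 3 were chosen by the count compared, which favours a lower share in the rest, and no other list was treated so. Of these 3, Col5a1, a chain of collagen V, had 16 of 27, at 10 to 22 tags. Pdgfrb, a growth factor receptor of mesenchymal cells, had 10 of 18 and Col1a1, a chain of collagen I, 7 of 12. Twist2, a mesenchymal transcription factor, had 3 of 9, and Thy1, the marker by which later cells were sorted, 1 of 2, at 15 tags.

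Of 27 pluripotency genes, 4 (14.8%) had a D3-alone region. Their median span was 12.2 kb, and 20 of the 27 had any D3 region. Esrrb, a nuclear receptor of naive pluripotency, had 6 of 17 D3 regions at 10 to 14 tags. The T-box factor gene Tbx3 had 3 of 6 at 11 to 17 tags. Dppa5a, a marker of undifferentiated cells, had 2 of 2 at 15 and 16 tags, and the growth factor gene Fgf4 1 of 2 at 11 tags. Together 12 of 54 D3 regions (22.2%, 13.2 to 34.9) in the list were D3 alone, an interval that includes the 20.8% of all D3 regions.

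The remaining lists lay on both sides of that value, and each interval included it. Epithelial genes had 17 of 71 D3 regions at D3 alone (23.9%), with 10 of 26 genes touched. These included the keratin genes Krt8, with 1 region at 17 tags, and Krt18, with 1 at 14 tags, and the adhesion gene Cdh1, with 1 at 14 tags. Genes of AP-1 proteins had 10 of 45 (22.2%), among them Mafk with 3 of 9 and Fosl1 and Fosl2 with 2 each. Mapk cascade genes had 70 of 351 (19.9%), with 6 in the kinase gene Map2k7. The 3012 kb model annotated as Fgfr2 held 46 of the 70 and 211 of the 351 D3 regions. Those 46 lay 14353 to 2843450 bp from its start, so the value of this list describes mostly that long span. TGF-beta genes had 23 of 116 (19.8%), with 6 in Ski and 4 each in Smad3 and Smad6. Keratinocyte genes had 4 of 21, blood and endothelial genes 9 of 59 (15.3%) and neural genes 6 of 51 (11.8%). Of the 213 D3-alone regions in list genes, none overlapped a region of either siRNA library and 15 held the AP-1 motif. Over all D3-alone regions the shares were 0.357% and 0.429% for the siRNA libraries and 7.01% for the motif, so these counts are near the background.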

How the data were processed

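ATAC-Seq peak files of 9 libraries, 1 per condition, were analysed. As the study's methods and the file headers record, the authors aligned their 51 bp reads to mm9 using STAR, discarded duplicates (Picard) and ambiguously mapped reads, and called peaks with MACS2 2.1.0.20151222 at a q-value cutoff of 0.05, without a control and with local background switched off. As deposited, the signal of a peak is its pileup in tags, unscaled. The fold enrichment was deposited too, and sets this pileup as a ratio against a genome with evenly spread tags. Significance was deposited as −log10 of the p-value and q-value.

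Peaks on chromosomes 1 to 19 were merged where they shared 1 bp, and a region took the height of its summit with the highest −log10 q-value. CPM is pileup divided by the tag total of the file header in units of 1e+06. Genes came from GENCODE vM1 on NCBIM37, the same build as mm9. A region was placed by its midpoint, with promoters given priority over genebodies, and the summit decided on exons and sequence. Motifs were matched exactly on both strands, with overlaps allowed. Named were the 10 regions with the highest score, the 10 genes with the most regions and the 10 densest, and the regions in list genes. Sequences printed came from the genome file. Members, gene lists and comparisons were chosen with earlier results of these data known. No test was made, as no condition had a replicate. Depth ranged from 13213117 to 31714845 tags, and a region below the lowest call of a library was not detectable there. Calculations used Python 3.11.15, numpy 2.4.6, pandas 2.3.3, pysam 0.24.0, numba 0.67.0 and matplotlib 3.10.9, and functions were tested on simulated regions. Alternatives were other rules for overlap, height, promoters and windows. One more, keeping regions whose 31 summit bases occur at a single place, was added after seeing the data. X, Y and unplaced sequences were left out, and a gene and some summit sequences that these rules name are not reported here.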

Additional observations from a re-analysis of the deposited data

How the results depend on the processing

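The number of D3-alone regions depended on the height required. It was 5524 with the stronger 50% of each library's peaks (1541 or 27.9% of them among the main 20753), 2272 when each library was cut to its 38664 strongest peaks and 2434 with D3 summits of at least 0.530 CPM. Of the 2272 regions, 262 were D3-alone regions of the main rule (11.5% of the 2272 and 1.26% of the 20753), so that this alternative names mostly other regions. The 2272 had an AP-1 share of 29.4%, an octamer share of 0.748% and a promoter share of 9.20%. All D3 regions kept under this alternative had an AP-1 share of 31.3%, so the low AP-1 share of the main rule was not seen there. At 0.530 CPM or more, the AP-1 share was 9.12% in D3-alone and 31.9% in other D3 regions. The number of D3-alone regions stayed within 1.5 times under the 4 others. The shares that overlapped D6 siNT and D6 siH3.3 were 3.34% and 3.20% within 500 bp, beside 46.1% and 46.4% for other D3 regions, and 0.616% and 0.698% at 0.530 CPM or more, beside 57.9% and 58.0%. The promoter share was 7.18% for 1 kb upstream to 100 bp downstream, 12.4% for protein-coding genes and 15.8% where summit bases occurred at a single place. The AP-1 share was 3.74% within 50 bp, 8.76% over the whole region and 7.53% at single-place summits, where other D3 regions had 30.3%. The octamer share was 0.236% within 50 bp, and the median GC 56.4% within 50 bp and 55.8% over the whole region. The other 9 of 28 alternatives stayed within the interval, or within 1.5 times for the count. No paired analysis was possible because each condition had 1 library. Libraries of 13213117 to 31714845 tags limit what absence of a peak can show.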
